A study of Mus musculus with 4 samples.

Results

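The prostaglandin and thromboxane pathway is described here through 10 of its genes. These were the cyclooxygenase genes Ptgs1 and Ptgs2, the synthase genes Ptgds, Hpgds, Ptges and Tbxas1, and the receptor genes Ptger2, Ptger3, Ptger4 and Ptgfr. They were chosen by name, and each matched 1 of the 33696 gene features of the deposited matrices. Their unique molecular identifiers (UMIs, 1 for each captured transcript) were read in all 4 matrices, by cell type, cell state, region and library. Nuclei came from mouse brain 21 days post-injury (dpi) after photothrombotic (PT) injury, in which light on the cortex excites a circulating dye and occludes the vessels under it. One group was labelled WT and is called control. The other was labelled Col1a2(creER); Cxcl12(flox) and is called Cxcl12-cKO: a tamoxifen-inducible Cre recombinase driven from Col1a2, which is active in fibroblasts, acts on a floxed allele of the chemokine gene Cxcl12. Both groups had the PT injury. Tissue of 1 male and 1 female mouse was combined in each group, lesion and perilesional parenchyma were tagged separately and mixed at 75% and 25%, and 1 library was made of each group. The age of these mice and their tamoxifen schedule are not given in the labels. With 1 library per group no difference between the groups has a replicate check, and none was tested.

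Prostanoids are short-lived lipid signals made from arachidonic acid, which phospholipases release from membranes. The cyclooxygenases COX-1 (Ptgs1) and COX-2 (Ptgs2) turn it into prostaglandin H2, and terminal synthases convert that into prostaglandin D2 (PGD2; Ptgds, the lipocalin-type synthase, and Hpgds, the haematopoietic one), prostaglandin E2 (PGE2; Ptges) or thromboxane A2 (Tbxas1). The receptors are G-protein-coupled: EP2, EP3 and EP4 (Ptger2, Ptger3 and Ptger4) bind PGE2, and FP (Ptgfr) binds prostaglandin F2α. In the brain, lipocalin-type PGD2 synthase is known as an abundant product of the leptomeninges and of oligodendrocytes, and thromboxane synthase and haematopoietic PGD2 synthase as genes of microglia and macrophages.

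The promoters of 4 members are shown, namely Ptgds, which was highest in fibroblast-like nuclei, and Ptgs1, Hpgds and Tbxas1, synthesis genes with more of their lesional UMIs in myeloid-like nuclei than in any other class. Each line gives the 250 bases before the RefSeq start of the gene on its own strand, 5′ to 3′, in the GRCm38.p6 build, while the matrices were made on GRCm39. Capitals mark matches to GAGGAAG, a purine-rich core of the kind bound by the myeloid factor PU.1, or to its reverse complement CTTCCTC. The windows are chr2:25469750-25469999 (minus strand) for Ptgds, chr2:36230176-36230425 (plus strand) for Ptgs1, chr6:65144731-65144980 (minus strand) for Hpgds and chr6:38918736-38918985 (plus strand) for Tbxas1. In the annotation of GRCm38 used for overlaps, Tbxas1 starts at 38875404, so its window lies inside the annotated gene. On the minus strand Ptgds starts at 25470046 there, so its window also lies inside the gene. Hpgds starts at 65144908, so most of its window, with the marked match, lies inside the gene too.
Ptgds: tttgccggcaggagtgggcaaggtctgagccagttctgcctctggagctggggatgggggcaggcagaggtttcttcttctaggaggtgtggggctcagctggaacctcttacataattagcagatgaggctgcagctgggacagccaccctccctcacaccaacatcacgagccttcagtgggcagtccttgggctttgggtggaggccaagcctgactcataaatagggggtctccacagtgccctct
Ptgs1: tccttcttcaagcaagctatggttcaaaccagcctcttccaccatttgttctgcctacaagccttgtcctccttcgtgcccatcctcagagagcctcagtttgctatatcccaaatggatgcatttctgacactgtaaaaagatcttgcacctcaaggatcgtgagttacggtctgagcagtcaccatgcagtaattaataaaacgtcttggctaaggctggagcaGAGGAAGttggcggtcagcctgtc
Hpgds: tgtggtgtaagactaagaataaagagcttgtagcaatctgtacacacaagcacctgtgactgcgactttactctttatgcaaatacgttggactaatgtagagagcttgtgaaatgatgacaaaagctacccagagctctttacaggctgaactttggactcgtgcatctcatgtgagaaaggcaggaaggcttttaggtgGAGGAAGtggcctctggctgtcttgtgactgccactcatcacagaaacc
Tbxas1: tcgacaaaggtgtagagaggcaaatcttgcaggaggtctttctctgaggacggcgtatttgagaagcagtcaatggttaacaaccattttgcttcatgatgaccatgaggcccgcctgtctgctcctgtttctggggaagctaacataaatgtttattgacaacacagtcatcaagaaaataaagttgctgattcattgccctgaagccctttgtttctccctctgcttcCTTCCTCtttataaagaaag
The motif was found once in each of Ptgs1, Hpgds and Tbxas1 and not in Ptgds. Over all 10 members it was present in 4, the fourth being Ptgfr, and over all RefSeq promoters of the same length in 3486 of 32851 (10.6%). Ptger4, a receptor gene with more of its lesional UMIs in myeloid-like nuclei than in any other class, had no match. A match is a description of the letters and not of binding.

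The 4 matrices held 23489 barcodes, of which 21743 were kept as nuclei. Between 7933 and 8095 lesional nuclei per library had medians of 2962 to 2975 UMIs, and between 2838 and 2877 parenchymal nuclei had medians of 15915 to 16648 UMIs, so depth per nucleus differed between regions far more than between libraries. The libraries shared 47 barcode sequences, and no barcode of a library was in both of its regions. UMIs of female-specific and male-specific genes occurred together in 9.75% to 14.3% of nuclei per matrix. Cell classes were rebuilt by clustering without the member genes and are written as class-like. Levels are in CPM, the UMIs of a gene summed over the nuclei of a class per 1000000 UMIs of all genes in those nuclei, with an exact 95% Poisson interval in brackets that covers counting error only. Of each pair of values the first belongs to the library labelled control and the second to the library labelled Cxcl12-cKO. Cxcl12 itself went against the labels in lesional fibroblast-like nuclei, at 106 and 216 CPM (log2 ratio 1.02, 0.93 to 1.11). The sources used here do not say which part of Cxcl12 is deleted, and 3′ counts check nothing about it, so every direction between groups is one between the libraries as labelled.

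The members separated by class in the lesion. Ptgds, Ptges and Ptgfr were highest in fibroblast-like nuclei, Hpgds and Tbxas1 in myeloid-like nuclei, Ptgs1 and Ptgs2 in endothelial-like nuclei, Ptger3 in excitatory-neuron-like nuclei, and Ptger2 and Ptger4 in T-cell-like nuclei. For 6 of the 10, Ptgds, Ptgs2, Ptges, Hpgds, Tbxas1 and Ptgfr, the interval of the highest class did not overlap that of the next class in either library, as was the case for 18.8% of the 19307 genes with at least 20 UMIs in these classes. For Ptgs1, Ptger2, Ptger3 and Ptger4 these intervals overlapped in at least 1 library. Ptger2 and Ptger4 led in T-cell-like nuclei on only 4 and 11 UMIs over both libraries, so their order of classes is weak. Classes with at least 50 lesional nuclei in each library, 9 in all, were ordered.

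**Figure D1:**
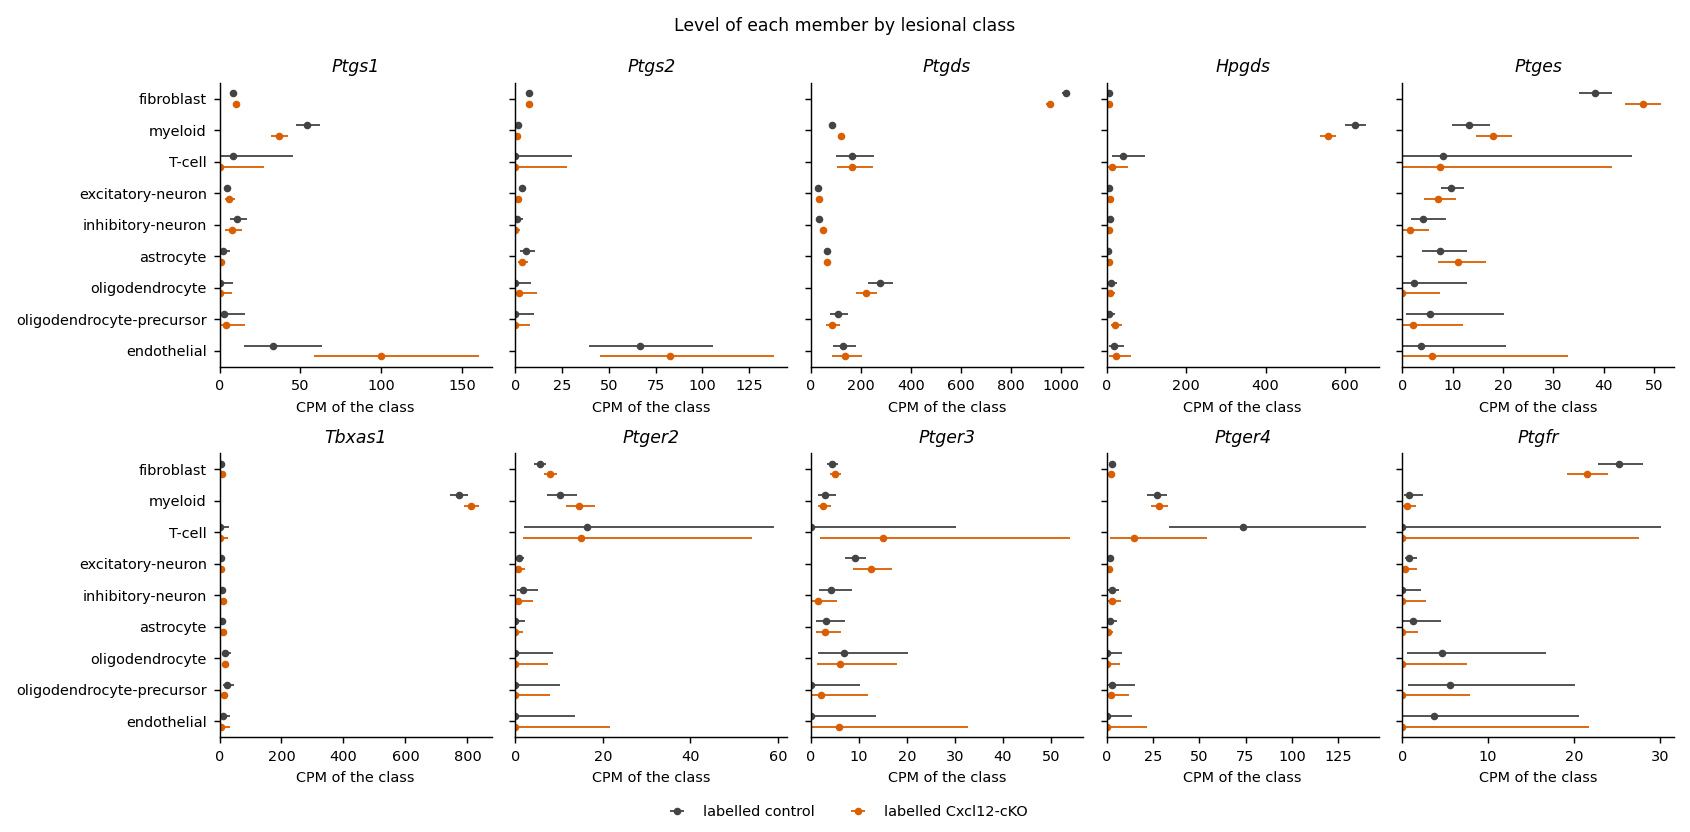
Level of each member in the 9 lesional classes, as CPM of the class on the x axis with exact 95% Poisson intervals as bars, for the library labelled control (grey) and the library labelled Cxcl12-cKO (orange). Ptgds stands at 1022 and 955 CPM in fibroblast-like nuclei, Hpgds at 626 and 556 CPM and Tbxas1 at 773 and 812 CPM in myeloid-like nuclei, and the other 7 members at 100.2 CPM or less in every class.

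Of the cyclooxygenases, Ptgs1, the constitutive isoform, was counted in both endothelial-like and myeloid-like nuclei. Endothelial-like nuclei were at 33.4 CPM (15.3 to 63.3, 9 UMIs) and 100.2 CPM (58.4 to 160.4, 17 UMIs), and myeloid-like nuclei at 54.4 CPM (47.1 to 62.4) and 36.8 CPM (31.9 to 42.2), on 201 UMIs in each library. The classes thus changed places between the libraries. Because myeloid-like nuclei are many, they held 48.2% and 44.8% of the Ptgs1 UMIs of the lesion. Fibroblast-like nuclei were at 8.37 and 10.1 CPM and inhibitory-neuron-like nuclei at 10.8 and 7.47 CPM. A Ptgs1 UMI was seen in 10.5% and 7.92% of lesional myeloid-like nuclei, whose median depths were 2048 and 2270 UMIs. It was seen in 4.25% and 4.47% of the far deeper parenchymal excitatory-neuron-like nuclei (17478 and 18407 UMIs). After thinning every nucleus to 758 UMIs the shares were 4.42% and 3.56% against 0.0913% and 0.241%.

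Ptgs2, the inducible isoform and an immediate early gene of neurons, was highest in endothelial-like nuclei. It was at 66.7 CPM (39.5 to 105) and 82.5 CPM (45.1 to 138) there, on 18 and 14 UMIs. The next class, fibroblast-like nuclei, was at 7.52 CPM (6.17 to 9.09) and 7.21 CPM (5.90 to 8.73), so the mean of the leading class was 10.1 times that of the next. Among the endothelial-like nuclei assigned to each of the 4 mice by sex-linked genes, the level lay between 62.4 and 108 CPM. Fibroblast-like nuclei still held 57.5% and 64.4% of lesional Ptgs2 UMIs, being 51.0% and 51.1% of lesional nuclei. After thinning, however, a Ptgs2 UMI was in 0.508% and 0.321% of fibroblast-like nuclei and in 0.502% and 0.385% of parenchymal excitatory-neuron-like nuclei. The thinned fibroblast share was thus close to that of neurons, which use the gene themselves. Over all UMIs those neurons were at 4.55 and 4.83 CPM, on 181 and 188 UMIs, below the fibroblast level in both libraries. In endothelial-like nuclei the thinned shares were 2.86% and 3.64%, on 3 and 2 nuclei. Without the nuclei of highest Scrublet (doublet) score, 95 and 45 endothelial-like nuclei were left, with Ptgs2 at 32.7 and 86.4 CPM on 8 and 13 UMIs. Myeloid-like nuclei held 6 UMIs of the gene in each library (1.62 and 1.10 CPM). The inducible cyclooxygenase was thus close to 0 in the myeloid class at 21 dpi.

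Ptgds, the lipocalin-type synthase of PGD2, was the most counted member, with 37031 UMIs in the kept nuclei. Lesional fibroblast-like nuclei were at 1022 CPM (1006 to 1039) and 955 CPM (940 to 971). Oligodendrocyte-like nuclei came next at 276 CPM (229 to 330) and 221 CPM (181 to 267), and the leading class was 3.98 times as high. Fibroblast-like nuclei held 86.5% and 84.5% of the Ptgds UMIs of the lesion. A Ptgds UMI was present in 46.1% and 44.5% of them, and after thinning in 29.0% and 26.3%, against 1.55% and 2.74% of parenchymal excitatory-neuron-like nuclei. Those neurons had a Ptgds UMI in 22.2% and 37.2% of nuclei before thinning, which is the level to set beside any low share of this gene.

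The oligodendrocyte signal was set against fibroblast RNA. For every 100 UMIs of the 7 fibroblast marker genes, lesional oligodendrocyte-like nuclei held 83.2 and 100 Ptgds UMIs, while lesional fibroblast-like nuclei held 23.9 and 24.9. In the parenchyma oligodendrocyte-like nuclei, of which there were 27 and 31, held 224 and 296, and parenchymal fibroblast-like nuclei 260 and 302. In the lesion the ratio was thus higher in oligodendrocyte-like than in fibroblast-like nuclei, and in the parenchyma it was close to that of the fibroblast-like nuclei.

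Hpgds, the haematopoietic synthase of PGD2, was a myeloid gene in these nuclei. Lesional myeloid-like nuclei were at 626 CPM (601 to 652) and 556 CPM (537 to 576), and the next class, T-cell-like nuclei, was at 41.0 and 15.0 CPM on 5 and 2 UMIs. The level was 21.2 times that of the next class. Myeloid-like nuclei held 78.7% and 81.0% of lesional Hpgds UMIs, and 64.3% and 65.2% of them had a UMI. The thinned shares were 36.2% and 31.0% in myeloid-like nuclei against 1.60% and 2.02% in parenchymal excitatory-neuron-like nuclei. Mast cells are another known source of the gene. In myeloid-like nuclei the 6 mast cell markers summed to 11.9 and 7.68 CPM, and Mcpt4, Tpsb2 and Cma1 were at 0 in both libraries.

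Tbxas1, the thromboxane synthase, followed the same class. Lesional myeloid-like nuclei were at 773 CPM (745 to 802) and 812 CPM (789 to 837), 41.7 times the next class, oligodendrocyte-precursor-like nuclei at 25.1 and 12.9 CPM. They held 79.7% and 83.7% of lesional Tbxas1 UMIs, and 69.6% and 74.6% of them had a UMI (41.2% and 42.4% after thinning). Parenchymal excitatory-neuron-like nuclei had one in 3.56% and 6.25%, and after thinning in 0.0913% and 0.241%. Platelets are the classic source of thromboxane. The 6 platelet markers summed to 7.30 and 8.96 CPM in myeloid-like nuclei, with Ppbp and Gp1ba at 0 in both libraries. Platelets have no nucleus, so counts of nuclei cannot show whether platelets hold the gene, and this was not tested.

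Ptges, the inducible PGE2 synthase, was highest in fibroblast-like nuclei at 38.3 CPM (35.1 to 41.6) and 47.8 CPM (44.3 to 51.5). Myeloid-like nuclei followed at 13.3 CPM (9.80 to 17.5) and 17.9 CPM (14.6 to 21.9). Fibroblast-like nuclei held 70.6% and 74.4% of its lesional UMIs. A UMI was found in 10.9% and 13.2% of them, or 2.74% and 3.35% after thinning, against 0.320% and 0.385% of thinned parenchymal excitatory-neuron-like nuclei.

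Among the receptors, Ptgfr, the prostaglandin F2α receptor, had the clearest class. Fibroblast-like nuclei were at 25.3 CPM (22.8 to 28.1) and 21.5 CPM (19.2 to 24.0) and held 84.5% and 86.9% of lesional UMIs. Myeloid-like nuclei held 3 UMIs in each library, and inhibitory-neuron-like nuclei none, which allows up to 3 UMIs. Ptgfr was seen in 6.58% and 5.75% of fibroblast-like nuclei and in 0.274% and 0.433% of parenchymal excitatory-neuron-like nuclei. After thinning it was in 1.77% and 1.48% of the former and in 0 of 2190 and 0 of 2079 of the latter, which allows shares of up to 0.137% and 0.144%.

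The 3 PGE2 receptors were spread over different classes. Ptger4, the EP4 receptor, was at 27.0 CPM (22.0 to 32.9) and 28.4 CPM (24.1 to 33.2) in myeloid-like nuclei, which held 46.7% and 65.7% of lesional UMIs. T-cell-like nuclei were at 73.7 CPM (33.7 to 139.9) and 15.0 CPM (1.81 to 54.0), on 9 and 2 UMIs. A small unnamed cluster of 22 lesional nuclei in the library labelled Cxcl12-cKO, led by Stat4, Il12b and Ccr7, held 10 Ptger4 UMIs, or 222 CPM (106 to 408). Its interval lies above those of the myeloid-like nuclei. The library labelled control held 9 lesional nuclei of the same cluster, too few for a level to be given. After thinning, a Ptger4 UMI was in 2.02% and 1.81% of myeloid-like nuclei and in 0.685% and 1.20% of parenchymal excitatory-neuron-like nuclei, which hold the gene too.

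Ptger2, the EP2 receptor, was at 5.55 CPM (4.40 to 6.92) and 7.96 CPM (6.58 to 9.55) in fibroblast-like nuclei and at 10.3 CPM (7.27 to 14.1) and 14.6 CPM (11.6 to 18.2) in myeloid-like nuclei. After thinning it was in 0.411% and 0.493% of fibroblast-like nuclei and in 0 of the parenchymal excitatory-neuron-like nuclei. It was at 0 UMIs in both libraries in astrocyte-like, oligodendrocyte-like, oligodendrocyte-precursor-like and endothelial-like nuclei of the lesion, which allows up to 3 UMIs in each. At totals of 269868 and 169712 UMIs in endothelial-like nuclei this includes the fibroblast and myeloid levels. In oligodendrocyte-like and oligodendrocyte-precursor-like nuclei it includes the fibroblast level of the library labelled control. Ptger3, the EP3 receptor, was at 9.10 CPM (7.08 to 11.5) and 12.5 CPM (8.85 to 17.0) in lesional excitatory-neuron-like nuclei. Fibroblast-like nuclei were at 4.36 CPM (3.34 to 5.59) and 5.01 CPM (3.93 to 6.30), below the neurons in both libraries. By mouse this order did not hold in the male labelled control, whose excitatory-neuron-like nuclei were at 3.67 CPM (1.68 to 6.96, 9 UMIs) and fibroblast-like nuclei at 4.59 CPM, while the neurons of the other 3 mice were at 9.80 to 13.3 CPM. The excitatory cluster led by Hs3st4 and Thsd7b had higher Ptger3 in the parenchyma (18.2 and 20.7 CPM) than the other excitatory cluster (8.76 and 10.7 CPM).

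Fibroblast-like nuclei of the lesion fell into 4 states, and the members differed between them. Ptgds was concentrated in the arachnoid barrier-like state (3 of its 4 markers, the next most similar list being leptomeningeal), at 2548 CPM (2503 to 2594) and 2722 CPM (2673 to 2771). The leptomeningeal-like state was at 833 and 632 CPM, a state led by Npr3 and Galnt13, which carried 3 altered dural markers, at 228 and 172 CPM, and the late inner-like state at 59.2 and 80.7 CPM. The arachnoid barrier-like state held 72.8% and 72.5% of all lesional Ptgds UMIs. Ranbp3l, 1 of the 5 leptomeningeal markers, was among the leading genes of this state of 2946 nuclei, so its name is only a label. At the finer resolution of 0.5 only 1398 nuclei were named arachnoid barrier-like, and states of 1022, 532 and 867 nuclei were named leptomeningeal. There the highest Ptgds was not in arachnoid barrier-like nuclei, which stood at 2088 and 1914 CPM. It was in 532 nuclei led by Nnat, Atp13a5 and Slc13a3 with all 5 leptomeningeal markers, at 6399 and 7553 CPM. The same nuclei had 106.9 and 116 CPM of Ptgfr and 13.2 and 28.4 CPM of Ptger3, the highest fibroblast values of both genes in each library. They had 11.7 and 4.73 CPM of Ptges, the lowest fibroblast values of that gene.

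At the main resolution Ptgfr peaked in the same state as Ptgds. It was at 46.4 CPM (40.5 to 52.9) and 45.6 CPM (39.5 to 52.4) in the arachnoid barrier-like state and at 9.29 to 23.3 CPM in the other 3. Ptges had another order, with the leptomeningeal-like state at 53.5 CPM (41.1 to 68.5) and 62.0 CPM (50.2 to 75.8) and the arachnoid barrier-like state at 27.5 CPM (23.0 to 32.6) and 36.5 CPM (31.0 to 42.6), the lowest in both libraries. Ptgs2 was at 13.6 and 14.4 CPM in the leptomeningeal-like state and at 4.35 to 10.3 CPM elsewhere. The state highest in Ptges and Ptgs2, the inducible steps of PGE2 synthesis, was not the state highest in Ptgds and Ptgfr, although the intervals of Ptgs2 overlapped between states, and those of Ptges in the leptomeningeal-like state overlapped those of the late inner-like state (31.1 to 44.5 and 49.0 to 61.9 CPM) in both libraries.

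**Figure D2:**
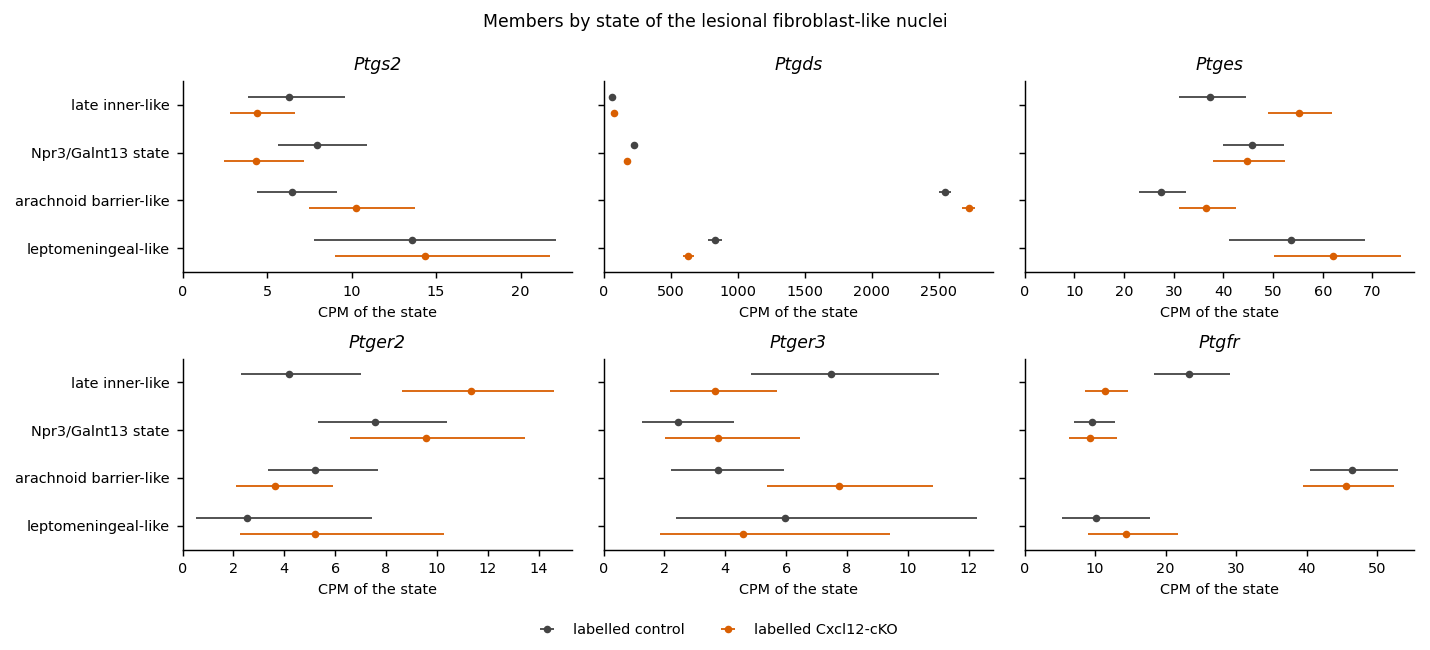
CPM of 6 members in the 4 states of lesional fibroblast-like nuclei, with exact 95% Poisson intervals as bars, for the library labelled control (grey) and the library labelled Cxcl12-cKO (orange). Ptgds and Ptgfr peak in the state named arachnoid barrier-like at the main resolution (2548 and 2722 CPM of Ptgds), while Ptges is lowest there (27.5 and 36.5 CPM).

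Myeloid-like nuclei of the lesion fell into 6 states. Tbxas1 was highest in the border-associated macrophage-like state, at 1024 CPM (928 to 1128) and 982 CPM (855 to 1122), and stood at 827 and 884 CPM in the homeostatic microglia-like state. A large state led by Mamdc2 and St18, which carried 3 scar-associated macrophage markers, was at 714 and 792 CPM, and a monocyte/dendritic-like state led by Dpp4 and Flt3 at 399 and 467 CPM. Hpgds had a similar order, with 691 and 608 CPM, 656 and 659 CPM, 594 and 542 CPM, and 234 and 182 CPM in the microglia-like, border-associated, Mamdc2/St18 and Flt3/Dpp4 states. The thromboxane and PGD2 synthases were thus lowest in the monocyte/dendritic-like of these 4 states. Of the smaller states, dividing nuclei were at 457 and 474 CPM of Hpgds and 370 and 669.6 CPM of Tbxas1, and a state led by ribosomal genes, which carried 3 monocyte/dendritic markers, was at 257 and 171 CPM and at 218 and 134 CPM.

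Ptgs1 and the PGE2 genes divided the same nuclei differently. Ptgs1 was at 83.3 CPM (70.6 to 97.6) and 60.9 CPM (51.5 to 71.5) in the microglia-like state and at 66.8 and 72.7 CPM in the border-associated state. Nuclei of the Mamdc2/St18 state held 13.6 CPM (7.80 to 22.2) and 9.09 CPM (5.63 to 13.9), below both in each library. Ptges and Ptger2 went the other way. Ptges was at 24.7 CPM (16.6 to 35.5) and 24.3 CPM (18.3 to 31.5) in the Mamdc2/St18 state and at 9.86 and 14.3 CPM in the microglia-like state, and Ptger2 at 20.5 CPM (13.1 to 30.4) and 25.1 CPM (19.1 to 32.5) against 6.58 and 6.13 CPM. Ptger4 was nearly level, between 21.3 and 32.2 CPM in these 3 states.

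**Figure D3:**
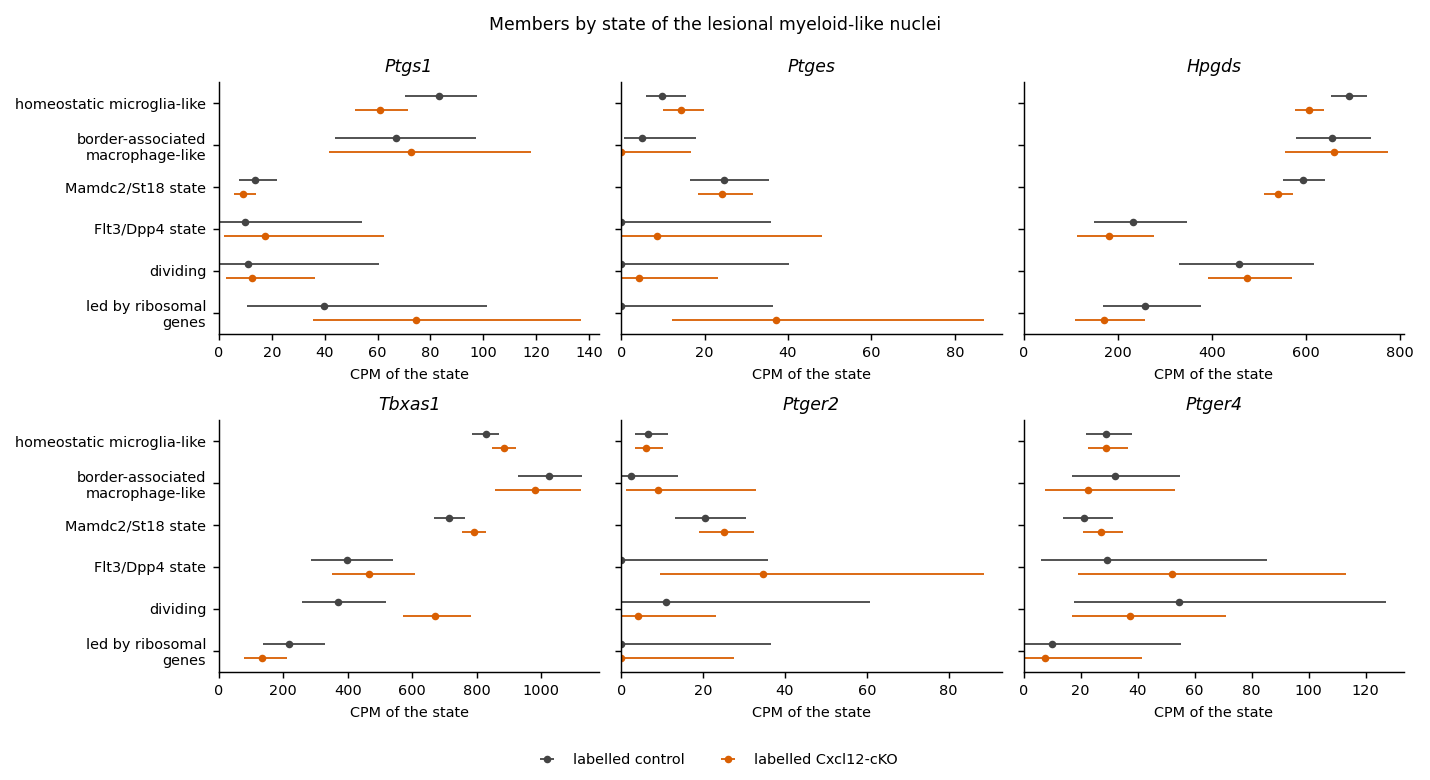
CPM of 6 members in the 6 states of lesional myeloid-like nuclei, with exact 95% Poisson intervals as bars, for the library labelled control (grey) and the library labelled Cxcl12-cKO (orange). Ptgs1 is lower in the Mamdc2/St18 state (13.6 and 9.09 CPM) than in the microglia-like state (83.3 and 60.9 CPM), and Ptges and Ptger2 are higher there.

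The regions were compared within each library for classes with at least 50 nuclei on each side. Ptgds was lower in lesional than in parenchymal fibroblast-like nuclei. The 51 and 50 parenchymal nuclei were at 3191 CPM (2961 to 3434) and 3657 CPM (3405 to 3923), giving log2 ratios of lesion over parenchyma of -1.64 (-1.75 to -1.53) and -1.94 (-2.04 to -1.83), where 31.4% and 34.7% of all genes were lower by at least 0.5 and 25.2% and 24.6% higher. The 7 fibroblast markers moved the other way, at 4275 and 3832 CPM in the lesion and 1229 and 1210 CPM in the parenchyma, and the part of the mix of fibroblast states in this was not tested. Ptges was on 3 and 10 parenchymal UMIs (13.4 and 46.9 CPM) and Ptgfr on 7 and 9 (31.3 and 42.2 CPM). Their log2 ratios were 1.29 (-0.04 to 3.80) and -0.04 (-0.86 to 1.09) for Ptges and -0.40 (-1.36 to 1.02) and -1.05 (-1.92 to 0.17) for Ptgfr. Ptgs2 and Ptger2 were at 0 UMIs in parenchymal fibroblast-like nuclei of both libraries, which allows up to 13.4 and 14.1 CPM and so includes the lesional levels.

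In excitatory-neuron-like nuclei Hpgds and Ptger4 were lower in the lesion. Hpgds was at 7.25 CPM (5.47 to 9.44) and 9.89 CPM (6.72 to 14.0) in the lesion and at 23.3 CPM (21.8 to 24.8) and 23.4 CPM (21.9 to 25.0) in the parenchyma, with log2 ratios of -1.67 (-2.10 to -1.29) and -1.22 (-1.81 to -0.73). Ptger4 was at 1.85 CPM (1.01 to 3.10) and 1.28 CPM (0.35 to 3.27) in the lesion and at 10.8 CPM (9.77 to 11.8) and 10.5 CPM (9.47 to 11.5) in the parenchyma, with log2 ratios of -2.49 (-3.43 to -1.78) and -2.87 (-4.92 to -1.67). After thinning every nucleus to 758 UMIs the Hpgds ratios were -1.22 and -0.98. Without nuclei with UMIs of both sexes they were -2.2 and -1.4. Ptger4 had too few UMIs for a ratio after thinning. Each mouse had the lower level of both genes in the lesion. Over the 4 mice, lesional Hpgds lay between 4.41 and 13.7 CPM and parenchymal Hpgds between 21.6 and 25.1 CPM, while Ptger4 lay between 0 and 2.04 CPM and between 10.4 and 11.1 CPM.

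Inhibitory-neuron-like nuclei had the same pattern on fewer UMIs. This class joined a cluster of 1020 nuclei led by Erbb4 and Adarb2 and another of 300 nuclei whose leading genes included Rgs9 and Drd2. The part of the mix of neuron clusters in the ratios between regions was not tested, for inhibitory-neuron-like or excitatory-neuron-like nuclei. Hpgds was at 9.60 and 6.72 CPM in the lesion and 19.1 and 17.1 CPM in the parenchyma, with log2 ratios of -0.95 (-1.84 to -0.24) and -1.28 (-2.51 to -0.38). Ptger4 was at 2.998 and 2.988 CPM against 10.2 and 11.4 CPM, with log2 ratios of -1.64 (-3.43 to -0.48) and -1.77 (-3.84 to -0.53). Excitatory-neuron-like nuclei held 10.6 and 5.83 Hpgds UMIs per Tbxas1 UMI in the parenchyma and 1.22 and 1.72 in the lesion, and inhibitory-neuron-like nuclei 4.5 and 7.42 and 1 and 0.692. In myeloid-like nuclei the same quotient was 2 and 1.98 in the parenchyma and 0.81 and 0.685 in the lesion. The part of RNA from myeloid cells in the neuronal values was not tested. In the annotation of GRCm38, Hpgds overlaps Gm17147 and Ptger4 overlaps Ttc33 and Gm15937 on the opposite strand. The sources used here do not say whether counting used strand, so reads of these partners cannot be told apart from theirs.

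**Figure D4:**
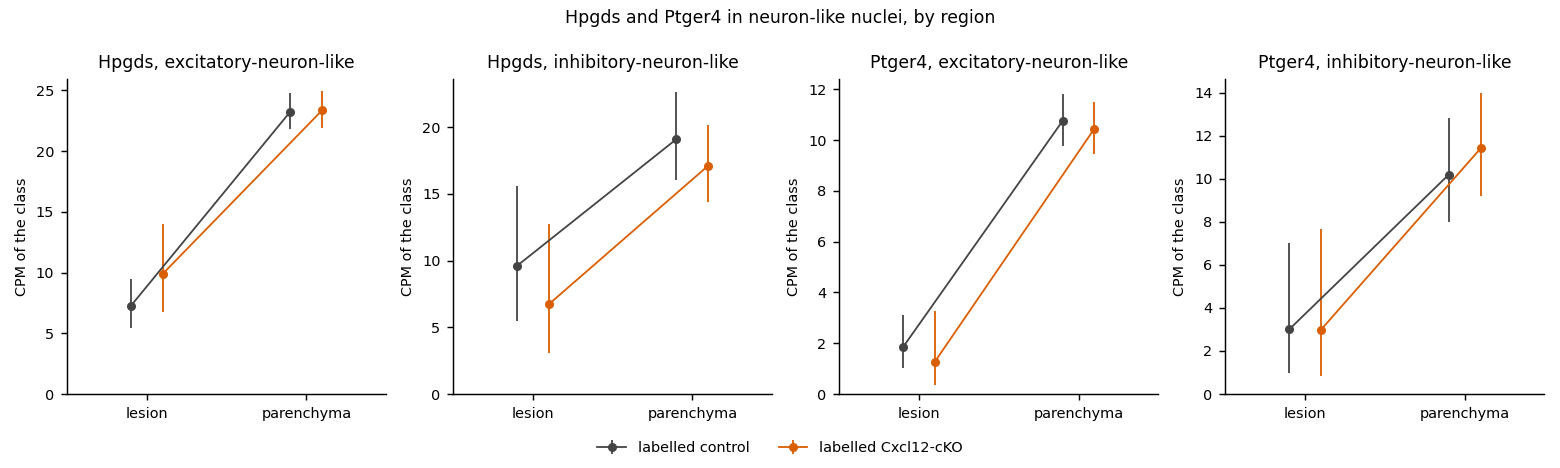
CPM of Hpgds and Ptger4 in excitatory-neuron-like and inhibitory-neuron-like nuclei of the lesion and the parenchyma, with exact 95% Poisson intervals as bars, for the library labelled control (grey) and the library labelled Cxcl12-cKO (orange). In excitatory-neuron-like nuclei Ptger4 stands at 1.85 and 1.28 CPM in the lesion and at 10.8 and 10.5 CPM in the parenchyma.

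Other members were higher in lesional excitatory-neuron-like nuclei. In the library labelled control these were Ptgds (log2 ratio 0.89, 0.65 to 1.11), Ptgs1 (0.70, 0.10 to 1.25), Ptges (0.77, 0.36 to 1.15) and Tbxas1 (1.45, 0.89 to 1.98), so that 4 of the 8 members with at least 20 UMIs were higher and 2 lower by at least 0.5, where 7.75% of all genes were higher and 30% lower. In the library labelled Cxcl12-cKO 3 of 8 were higher (Ptgs1, Ptges and Tbxas1) and 3 lower (Hpgds, Ptger4 and Ptgs2), where 11.2% and 29.6% of all genes were. The median over all genes was -0.14 and -0.12, and over the members 0.25 and 0.22, so relative to all genes each member stood slightly higher than its ratio. Ptger3 did not differ beyond counting error (-0.20, -0.60 to 0.16, and 0.02, -0.51 to 0.47). The 7 fibroblast markers summed to 156 and 92.9 CPM in lesional and 32.6 and 32.3 CPM in parenchymal excitatory-neuron-like nuclei, and the part of fibroblast RNA in the members that were higher was not tested. The 8 myeloid markers summed to 25.3 and 31.3 CPM in the lesion and 39.9 and 42.8 CPM in the parenchyma, and the part of myeloid RNA was not tested either.

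In inhibitory-neuron-like nuclei 4 of 7 members were higher and 2 lower in the library labelled control, where 12% and 26.7% of genes were, and 2 of 6 higher and 3 lower in the other, where 11.9% and 29.6% were. The medians over all genes were -0.06 and -0.13. Ptgds and Tbxas1 were among the higher members in both, and the fibroblast markers again stood higher in the lesion (262 and 111 CPM against 46.1 and 41.4 CPM).

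Parenchymal myeloid-like nuclei numbered only 30 and 46, so their values are given without a ratio. Ptgs1 was at 295 CPM (172 to 472) and 233 CPM (148 to 349) in them, above the intervals of the lesional microglia-like state. Tbxas1 was at 364 CPM (226 to 557) and 405 CPM (289 to 551), below its lesional level, and Hpgds at 729 CPM (525 to 985) and 799 CPM (633 to 997). No Ptges or Ptgs2 UMI was counted in parenchymal myeloid-like nuclei of either library, which at totals of 57655 and 98808 UMIs allows up to 52.0 and 30.4 CPM and so includes the lesional levels.

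Between the libraries the members of lesional fibroblast-like nuclei differed little. All 10 had at least 20 UMIs, and 1, Ptger2, passed a log2 ratio of 0.5 (0.52, 0.09 to 0.95), where 7.22% of all genes were that much higher and 5.71% that much lower. Over the members the median ratio was 0.19 and over all genes 0.0024. Ptges was higher (0.32, 0.16 to 0.49), at 0.54 (0.30 to 0.79) between the male mice and 0.18 (-0.09 to 0.45) between the females. Ptgds was slightly lower over all nuclei (-0.10, -0.13 to -0.06). Between the females (-0.03, -0.08 to 0.03) and between the males (-0.02, -0.07 to 0.04) its intervals included 0. Over 12 alternatives of the processing this Ptgds ratio lay between -0.57, with nuclei assigned by their own markers, and 0.25, without the percentile filter, so its direction depended on the processing. By state Ptgds was higher in the arachnoid barrier-like (0.095, 0.059 to 0.13) and late inner-like states (0.45, 0.20 to 0.70). It was lower in the state led by Npr3 and Galnt13 (-0.40, -0.55 to -0.26) and in the leptomeningeal-like state (-0.40, -0.53 to -0.27). Ptgfr was lower over all nuclei (-0.24, -0.46 to -0.01) but not in the male mice (0.09, -0.30 to 0.50). Ptgs2 was level (-0.06, -0.46 to 0.34).

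Single states held larger differences than the class, most of all the late inner-like state (982 and 1307 nuclei). The share of all genes past 0.5 within a state was not computed, so ratios within states have no background here. In the late inner-like state Ptger2 was at 4.19 CPM (2.29 to 7.02) and 11.3 CPM (8.63 to 14.6), on 14 and 59 UMIs. Its log2 ratio was 1.40 (0.58 to 2.39). By mouse it was at 5.65 CPM in the female and 4.09 CPM in the male labelled control and at 11.1 and 9.78 CPM in those labelled Cxcl12-cKO. Ptgfr went the other way, at 23.3 CPM (18.4 to 29.1) and 11.3 CPM (8.63 to 14.6) with a log2 ratio of -1.04 (-1.55 to -0.53), and at 33.9 and 17.5 CPM in the mice labelled control and 9.40 and 10.6 CPM in the others. Ptges was at 37.4 CPM (31.1 to 44.5) and 55.1 CPM (49.0 to 61.9), a log2 ratio of 0.56 (0.25 to 0.88). Ptger3 was lower in that state (-1.03, -1.98 to -0.11) and higher in the arachnoid barrier-like state (1.03, 0.18 to 1.96), on 25 and 19 UMIs and on 18 and 34 UMIs. At resolution 0.5 the late inner-like nuclei divided into a state led by Nav2 and Matn4 (754 and 799 nuclei) and one led by Kif26b and Ebf3 (132 and 442 nuclei), so their mix differed between the libraries. In the former Ptger2 was at 2.91 CPM (1.17 to 6.00) and 7.37 CPM (4.56 to 11.3) and Ptgfr at 29.1 and 10.9 CPM, and in the latter Ptger2 was at 10.1 CPM (3.71 to 22.0) and 15.8 CPM (10.9 to 22.2) and Ptgfr at 8.42 and 13.9 CPM. The direction of Ptgfr thus held only in the larger of these states. These values were chosen after those of all states had been seen.

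In lesional myeloid-like nuclei 8 members had at least 20 UMIs. Ptgs1 was lower (-0.56, -0.85 to -0.27) and Ptger2 higher (0.50, -0.06 to 1.11), where 7.34% of all genes were higher and 7.95% lower by at least 0.5. The median was 0.07 over the members and -0.02 over all genes. Ptgs1 was lower in the female mice (68.2 and 41.0 CPM) and in the male mice (45.2 and 26.8 CPM). Within the homeostatic microglia-like state it was also lower (-0.45, -0.79 to -0.12). The mix of states moved with it: the Mamdc2/St18 state, which is low in Ptgs1, held 465 of 1538 nuclei labelled control and 776 of 1995 labelled Cxcl12-cKO. At the finer resolution, the state with the most Ptgs1, led by Atp8a2, Siglech and Sall1, was at 135 CPM (111 to 161) and 137 CPM (112 to 165), and with states weighted alike the log2 ratio was -0.34. Hpgds (-0.17, -0.25 to -0.09) and Tbxas1 (0.07, 0.0039 to 0.14) stayed within 0.5. Myeloid Ptgds was higher (0.47, 0.28 to 0.67) between the females (1.22, 0.90 to 1.57) and not between the males (-0.13, -0.55 to 0.28).

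**Figure D5:**
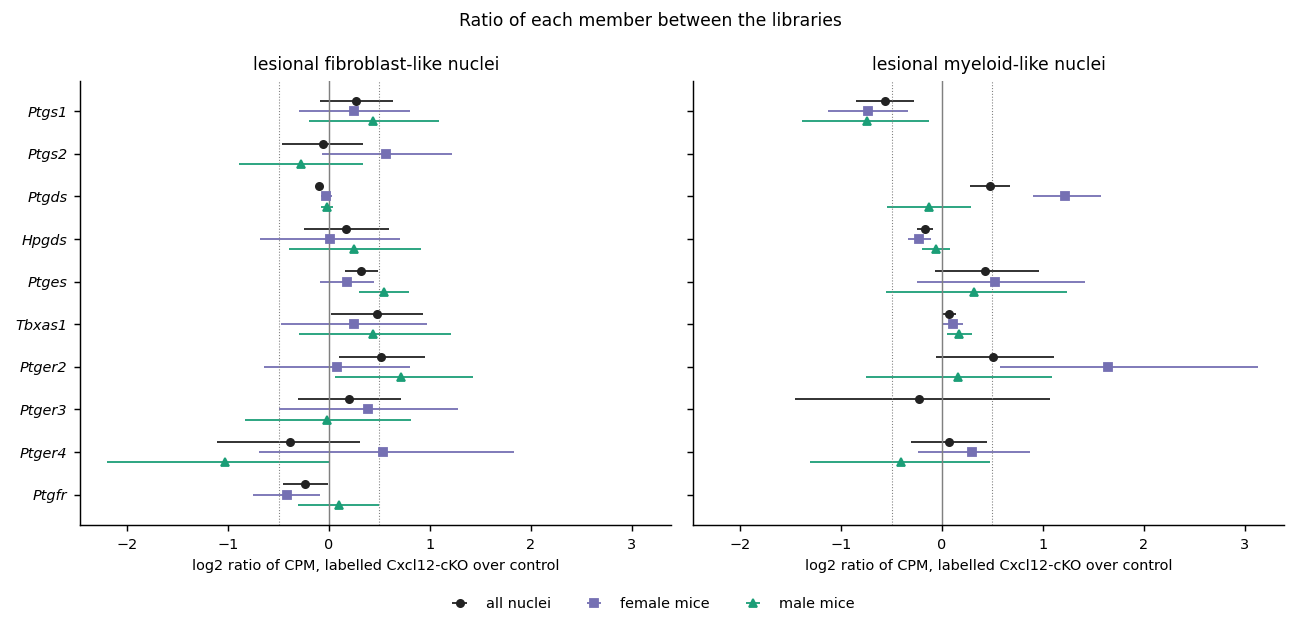
Log2 ratio of CPM, library labelled Cxcl12-cKO over library labelled control, for the members in lesional fibroblast-like and myeloid-like nuclei, over all nuclei (circles) and in the nuclei of the female mice (squares) and of the male mice (triangles), with exact 95% conditional binomial intervals and dotted lines at 0.5 and -0.5. Only Ptger2 in fibroblast-like nuclei (0.52) and Ptgs1 (-0.56) and Ptger2 (0.50) in myeloid-like nuclei lie past the dotted lines over all nuclei.

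In the smaller classes 3 members passed 0.5. Ptgs1 was higher in endothelial-like nuclei labelled Cxcl12-cKO (1.55, 0.34 to 2.94, on 9 and 17 UMIs), where 15% of genes were higher and 17.3% lower. Ptges was higher in astrocyte-like nuclei (0.56, -0.48 to 1.73), where 9.54% and 10.7% were, and Ptgs2 lower in excitatory-neuron-like nuclei (-1.34, -3.46 to 0.04, on 27 and 4 UMIs), where 7.96% and 8.83% were. The last 2 intervals include 0.

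The rest of the pathway was read from a list of 16 further prostanoid genes, of which the 7 with at least 100 UMIs in their highest lesional class are named. Pla2g4a, the phospholipase that releases arachidonic acid, was at 211 and 389 CPM in endothelial-like nuclei and at 181 and 188 CPM in fibroblast-like nuclei. Of the transporters, Abcc4, which exports prostaglandins, was at 908 and 754 CPM and Slco2a1, which takes them up, at 326 and 395 CPM in endothelial-like nuclei. Ptgis, the prostacyclin synthase, was at 57.4 and 65.4 CPM and Ptgdr, the DP1 receptor of PGD2, at 145 and 133 CPM in fibroblast-like nuclei. Ptgr1, a prostaglandin reductase, was at 4.92 and 5.35 CPM there, next to 5.68 and 4.39 CPM in myeloid-like nuclei. The fibroblast class thus held both the lipocalin-type PGD2 synthase and a PGD2 receptor.

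Hpgd, the dehydrogenase that inactivates prostaglandins, was highest in astrocyte-like nuclei at 154 CPM (135 to 174) and 144 CPM (129 to 162). Fibroblast-like nuclei held Hpgd at 71.6 CPM (67.2 to 76.1) and 34.5 CPM (31.6 to 37.7), for which the log2 ratio was -1.05 (-1.21 to -0.90). Nuclei of the female mice gave -1.55 (-1.83 to -1.29) and those of the male mice -0.61 (-0.86 to -0.37). At resolution 0.5 Hpgd was among the leading genes of a fibroblast state of 540 nuclei led by Kctd8 and Pappa. The part of the mix of fibroblast states in the Hpgd ratio was not tested. Myeloid-like nuclei held Hpgd at 47.1 and 28.7 CPM (-0.71, -1.03 to -0.39). In fibroblast-like nuclei 14 of the 16 genes had at least 20 UMIs, of which 1 was higher (Ptgir) and 2 lower (Hpgd and Cbr1) by at least 0.5, where 7.22% and 5.71% of all genes were, with a median of 0.04. In myeloid-like nuclei 2 of 13 were higher and 4 lower, where 7.34% and 7.95% of all genes were, with a median of -0.13.

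The 5-lipoxygenase branch, which makes leukotrienes from the same arachidonic acid, was read from 7 genes. Alox5, the lipoxygenase, was at 15.4 and 8.05 CPM, Alox5ap, its activating protein, at 28.9 and 25.6 CPM and Ltc4s, the leukotriene C4 synthase, at 28.4 and 23.4 CPM in myeloid-like nuclei, their highest class. Of the 6 with at least 20 UMIs there, 0 were higher and 2 lower (Alox5, -0.93, -1.54 to -0.34, and Cysltr2, -0.74, -1.85 to 0.35), against the same 7.34% and 7.95% of all genes, with a median of -0.26. In fibroblast-like nuclei 3 of the 7 had at least 20 UMIs, of which 1 was higher and 0 lower, against 7.22% and 5.71% of all genes.

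Genes with the most similar pattern were taken by Pearson correlation of log2(CPM + 5) over 18 points, the 9 lesional classes in both libraries, among 13872 genes with at least 200 lesional UMIs. The points share libraries and some are shallow, so the correlations are descriptions. Among those nearest to Hpgds were Adap2 (r = 0.97) and C3ar1, and those nearest to Tbxas1 were Gm46224 (0.97), Btk and Ms4a4a. Ptgs2 was nearest to Tek (0.97), Fzd4 and Paqr5, Ptgfr to Pthlh (0.94), Twist1 and Tfap2b, and Ptgds to Slc38a2 (0.93), Dock5 and Pdxdc1. Ptgs1 was nearest to Prcp (0.91), F11r and Vps13d, Ptges to Por (0.91), Gm50143 and Akr1b8, and Ptger4 to Was (0.97), Parvg and ENSMUSG00000121399. Ptger2 was nearest to Gm26740 (0.97), Osgin1 and Cmtm7, and Ptger3, the least matched member, to Otub2 (0.83), Tspyl5 and Glrx2.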

How the data were processed

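Nuclei of lesion and perilesional parenchyma were profiled by droplet sequencing at the 3′ end. The deposited matrices hold UMI counts per gene and nucleus, made by the authors with Cell Ranger 9.0.0 on GRCm39, and nothing in them was normalised. The members and gene lists were chosen with earlier results of these data known.

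Over all 4 matrices, barcodes in the lowest or highest 2.5% of UMIs or genes, or in the highest 2.5% of mitochondrial share, were removed. Counts were scaled to 10000 per nucleus, logged, and clustered in scanpy 1.11.5 with leidenalg 0.10.2 (3000 variable genes, 30 components, 20 neighbours, resolution 0.25), leaving out the members, the other pathway genes, Cxcl12 and its receptors, and sex-linked and mitochondrial genes. Clusters and subclusters were named from marker lists when at least 3 markers were up. These naming thresholds were set after the clusters were seen. Subclusters that carried a second class, which may be doublets, were set aside, and removing the nuclei with the highest 10% of Scrublet scores was an alternative.

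UMIs were summed per class, region and library. CPM has exact Poisson intervals and ratios (0.5 added to each sum) have exact conditional binomial intervals, both at 95% and for counting error only (scipy 1.17.1). Shares with a UMI were also taken after thinning to 758 UMIs. A log2 ratio of 0.5 or more in size among genes with at least 20 UMIs was the threshold for counts. With 1 library per genotype no test was made. Named pathway genes had at least 100 UMIs in their highest class, and the 3 most similar genes of each member were named, except 1 that is not reported here. Nuclei were assigned to the female or male mouse of a library from sex-linked genes. The ratio code was checked on simulated counts. The deposited multiplexing tag counts were not used for levels.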

Additional observations from a re-analysis of the deposited data

Results flagged for a closer look

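Over 64 pairs of a gene and a class, the ratio between the libraries was compared between the female and the male mice, and 3 pairs had intervals on opposite sides of 0. With 1 mouse of each sex per library the difference between the sexes was not tested, and it cannot be told apart from a difference between single mice.

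Ptgds in lesional oligodendrocyte-precursor-like nuclei stood at 198.5 CPM in the female labelled control and 66.1 CPM in the female labelled Cxcl12-cKO (log2 ratio -1.57, -2.54 to -0.68). These values rested on 30 and 17 UMIs. The males stood at 18.9 and 152.5 CPM (2.83, 1.25 to 5.41), on only 3 and 19 UMIs. Over all of these nuclei the 7 fibroblast markers summed to 782 and 787 CPM, and the part of fibroblast RNA was not tested. The male ratio minus the female ratio was 4.40. For Abcc4, the prostaglandin exporter, in lesional fibroblast-like nuclei the difference was -0.69, with 75.4 and 106 CPM in the females (0.50, 0.31 to 0.68) and 89.9 and 78.7 CPM in the males (-0.19, -0.38 to -0.01). For Ptgdr, the DP1 receptor, in the same nuclei it was 0.56, with 175 and 138 CPM in the females (-0.35, -0.49 to -0.21) and 119.8 and 139 CPM in the males (0.21, 0.06 to 0.36).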

How the results depend on the processing

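Of 410 alternative values of the ratios between the libraries, 372 stayed within the interval of the value reported, 36 moved outside it, and 2 reversed, which was counted only for values of at least 0.5 in size. Smaller values also changed sign, 26 of those that stayed and 16 of those that moved, among them Ptgds in oligodendrocyte-precursor-like nuclei (-0.33, and 2.83 in male mice) and in myeloid-like nuclei (0.47, and -0.13 in male mice) and Ptger4 in fibroblast-like nuclei (-0.39, and 0.54 in female mice). The 2 reversed were Ptges in astrocyte-like nuclei (0.56), at -0.024 with mixed subclusters counted in their class, an alternative added after seeing the data, and at -0.19 with nuclei assigned by their own markers. Of 54 alternative values of the ratios between regions 43 stayed, 10 moved and 1 reversed, Ptges in fibroblast-like nuclei of the library labelled control (1.29), at -0.061 after thinning. Smaller values changed sign in 2 of those that stayed and in 1 that moved, Ptgds in excitatory-neuron-like nuclei of the library labelled Cxcl12-cKO (0.42, and -0.24 after thinning). The cause was not tested.

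The count of fibroblast members past 0.5, which was 1, became 0 with each nucleus weighted alike, without the percentile filter or without nuclei with UMIs of both sexes, 2 in female mice or with states weighted alike, and 3 in male mice or with nuclei assigned by their own markers. The myeloid count, which was 2, became 0 with states weighted alike, 4 in female mice, and 1 with each nucleus weighted alike, in male mice, without mitochondrial UMIs, with mixed subclusters counted or with nuclei assigned by their own markers. Ptgs1 in myeloid-like nuclei lay between -0.75 and -0.34 over its 12 alternatives. After thinning, fewer members reached 20 UMIs, and the counts past 0.5 between regions fell from 6 to 2 and from 6 to 1 in excitatory-neuron-like and from 6 to 0 and from 5 to 1 in inhibitory-neuron-like nuclei (control first).

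The highest class stayed for 4 of 10 members with nuclei assigned by their own markers and for 8 to 10 under the other alternatives. Without the highest Scrublet scores endothelial-like nuclei numbered 45 in the library labelled Cxcl12-cKO, fewer than the 50 needed to be ordered, which left Ptgs1 highest in myeloid-like and Ptgs2 in fibroblast-like nuclei. At resolution 0.5, 6 of 10 members kept their leading fibroblast state. No paired analysis was possible because there was 1 library per genotype and the labels pair no mice across genotypes, while regions were compared within each library. Ptger2 had the fewest UMIs in all kept nuclei (403), followed by Ptgs2 (736).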
